A study of Homo sapiens with 4 samples.

Results

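The mitochondrial ribosomal protein genes were examined in A549, a lung adenocarcinoma cell line of human origin, after depletion of LDOC1 by a short hairpin RNA. In 2 samples the depleted cells expressed H2BK120R, a mutant of histone H2B in which arginine stands in place of the lysine that takes up monoubiquitin, and in 2 samples they carried the empty vector as control. Both groups shared the hairpin and were kept in puromycin, so the comparison lies within LDOC1-depleted cells. Per the submitters' design text, H2Bub1, the monoubiquitylated form of H2B, went up on LDOC1 depletion and was lowered by the mutant histone. That mark itself was not measured by the arrays. The labels do not say whether a subline was a single clone or whether the replicates were separate cultures, so the p-values rest on array-to-array spread alone, and that spread may be technical. Members were the probe sets whose single gene symbol starts with MRPL or MRPS and a digit, with 1 probe set per gene. This gave 74 genes of 17687 on the array, 47 named for the large subunit (MRPL) and 27 for the small subunit (MRPS). The RefSeq table holds 77 protein-coding genes with such symbols, and MRPL45, MRPL53 and MRPS6 had no probe set named for them.

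Mitochondria hold their own ribosome, which translates the few respiratory chain proteins that mitochondrial DNA encodes. All of its proteins are encoded in the nucleus, made in the cytosol and imported. The large subunit joins amino acids and the small subunit reads the messenger RNA, and each combines proteins with bacterial counterparts and proteins found only in mitochondrial ribosomes. Symbols and structure differ in places: MRPS30 and MRPS18A were named as small subunit proteins, while structures place both in the large subunit.

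The arrays held log2 levels of 21448 probe sets. Array medians were between 6.40 and 6.43, and Pearson correlations were between 0.990 and 0.994 over pairs of arrays. As a coarse check of the label, the mean of a probe set was set beside the median of all of them, 6.41. All 5 markers of A549 cells and 5 of 6 epithelial markers lay at or above it, with EPCAM (5.58) below, against 1 of 4 fibroblast (COL1A2), 0 of 4 leukocyte and 0 of 4 endothelial markers. Of the members, 71 of 74 had a mean at or above that median. The exceptions were MRPL54 (5.75), MRPL23 (6.37) and MRPS31 (5.28). Probe sets differ in brightness for reasons other than transcript abundance, so the levels of genes were not ranked as transcript abundance, and all differences are between arrays of 1 probe set.

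The mitochondrial ribosomal protein genes lay on both sides of 0, with more of them lower than higher with H2BK120R, and no single gene passed the test. Of the 74 genes, 49 were lower, 23 higher and 2 equal, against 49.4% lower and 49.9% higher among all probe sets. The median difference, H2BK120R minus vector, was -0.095 on the log2 scale, a change of -6.37%, beside 0.00 over all probe sets and 0.03 over those at or above the median level. The middle 50% of the members ran from -0.25 to 0.07, and the whole list from -0.78 for MRPL32 to 0.55 for MRPL37. In limma, 0 of 74 members passed a Benjamini-Hochberg adjusted p of 0.05 over all probe sets, where 0% of probe sets were called, and the smallest adjusted p of a member was 0.678. At an unadjusted p under 0.05, 2 members were lower (MRPL32 and MRPS18C) beside 3.08% of all probe sets, and 1 was higher (MRPL37) beside 3.62%. Both shares of the 74 are close to that background. These counts turned on single arrays: without H2BK120R replicate 2 they were 0 lower and 0 higher, beside 1.14% and 1.17% of all probe sets. Without vector replicate 1 they were 5 and 0, beside 2.53% and 2.9%. With vector replicate 2 left out, both counts and both shares of all probe sets rose. The shares did not always move with the counts. With vector replicate 1 left out, the count of lower members rose while the share of lower probe sets fell.

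Separation of the 4 array values gave a similar picture. Both H2BK120R arrays lay below both vector arrays for 20 members, or 27.0%, beside 17.9% of all probe sets. Both lay above for 10 members, or 13.5%, beside 18.6%. The groups overlapped for the remaining 44. The 95% confidence interval of the difference included 0 for 71 members, and its median reach to either side was 0.45. That reach applies to single genes and not to the median over the members, which was -0.095. The members' median varied between arrays of a group with a standard deviation of 0.022. That value rests on these 4 arrays alone and may reflect technical spread only, so -0.095 was not judged against it. The same measure was larger within each subunit, at 0.0545 for the large subunit genes and 0.0368 for the small subunit genes. Between the H2BK120R arrays the medians of the subunits moved in opposite directions. The members share the 4 arrays and are not replicates, so their median was described without a test. The smallest two-sided p that exact permutation of these 4 arrays allows for any gene is 0.333.

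**Figure D1:**
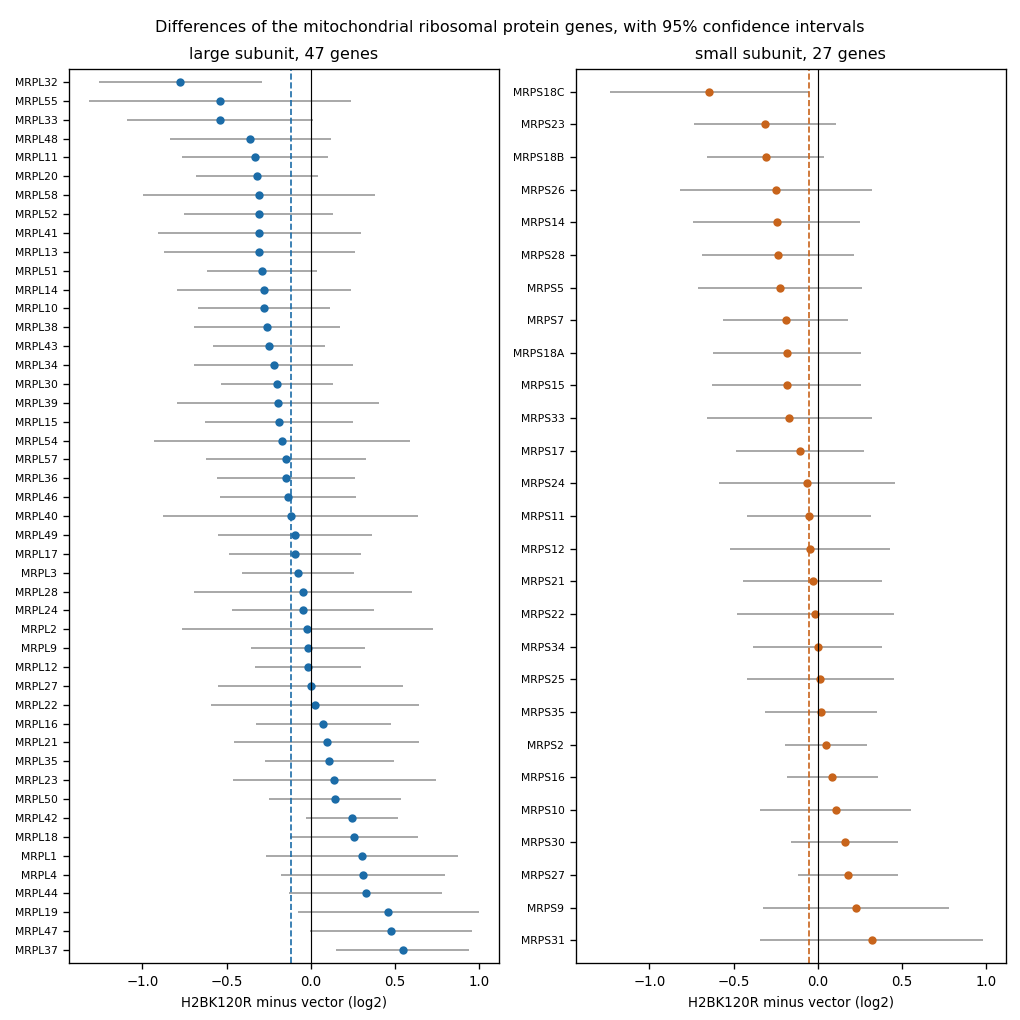
Log2 difference of each mitochondrial ribosomal protein gene, H2BK120R minus vector (points), with its 95% confidence interval from limma (lines), for 47 large subunit genes (left panel) and 27 small subunit genes (right panel). The dashed lines mark the subunit medians, -0.12 and -0.05, and the intervals of MRPL32, MRPS18C and MRPL37 are the 3 that leave out 0.

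The large subunit genes had a somewhat lower median than the small subunit genes, by less than the spread between arrays. Of the 47 large subunit genes, 32 were lower and 14 higher with H2BK120R, with a median difference of -0.12. Of the 27 small subunit genes, 17 were lower and 9 higher, with a median of -0.05. The gap between the medians was -0.07, while the same gap varied between arrays of a group with a standard deviation of 0.078. Counting MRPS30 and MRPS18A with the large subunit left all 3 values as they were, at 33 of 49 and 16 of 25 genes lower. The subunits shared their arrays and their members are not replicates, so the gap was described without a test.

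The direction of that gap depended on single arrays. Measured as the median deviation from each gene's mean over the 4 arrays, the large subunit genes stood at -0.005 in H2BK120R replicate 1 and -0.11 in H2BK120R replicate 2, against 0.02 and 0.04 in the vector arrays. The small subunit genes stood at -0.05 and -0.005 in the H2BK120R arrays, against 0.03 and 0.09 in the vector arrays. The large subunit median was thus lowest in H2BK120R replicate 2, while the small subunit median was lowest in H2BK120R replicate 1 and highest in vector replicate 2. Without H2BK120R replicate 2 the gap between the subunits was 0.02, and without vector replicate 1 it was 0.08, both with the sign turned. Without H2BK120R replicate 1 it was -0.17. The small subunit median was 0.005 without vector replicate 2, so its direction also rested on that array. The large subunit median was below 0 with any array left out, between -0.20 and -0.08.

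**Figure D2:**
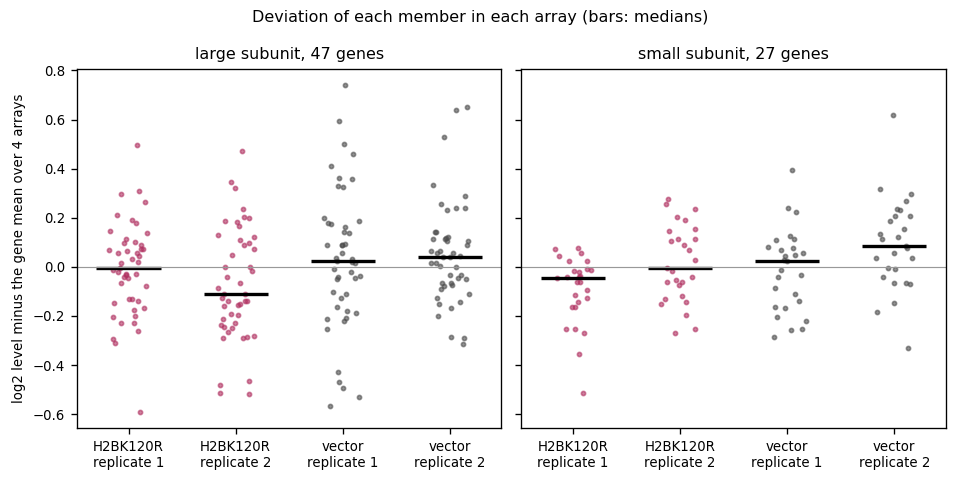
Deviation of each member's log2 level from its own mean over the 4 arrays (points), by array, with H2BK120R arrays left of vector arrays and bars at the medians. The large subunit median is lowest in H2BK120R replicate 2, at -0.11, and the small subunit median in H2BK120R replicate 1, at -0.05.

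Among large subunit proteins with bacterial counterparts, 19 of 30 genes were lower and 10 higher, with a median of -0.05. MRPL32, whose protein is trimmed by a protease of the inner mitochondrial membrane before it joins the ribosome, had the smallest p of all members. It was at 8.76 and 8.57 in the H2BK120R arrays, against 9.19 and 9.69 in the vector arrays. The groups did not overlap. Its difference was -0.78 ± 0.22 (limma standard error), or 0.584-fold, with a 95% interval from -1.26 to -0.29 and a limma adjusted p of 0.678. MRPL33, a small protein of the same subunit, was at 8.47 and 7.97 in the H2BK120R arrays, against 8.99 and 8.53 in the vector arrays. The nearest values of the groups were thus only slightly apart, and the difference was -0.54 ± 0.25 (limma adjusted p = 0.745). MRPL20, which also has a bacterial counterpart, was at 10.67 and 10.41 with H2BK120R and at 10.88 and 10.84 with the vector, a difference of -0.32 ± 0.16. MRPL55 had a difference of -0.54 ± 0.35, with overlapping groups.

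On the higher side, MRPL47, a protein at the exit where the new chain leaves the ribosome, was at 9.43 and 9.29 in the H2BK120R arrays, against 8.63 and 9.14 in the vector arrays. MRPL19, another protein with a bacterial counterpart, was at 9.01 and 9.24, against 8.33 and 9.0. For both genes vector replicate 1 was the low array, and the other vector array lay close to an H2BK120R value. Their differences were 0.48 ± 0.22 and 0.46 ± 0.24, with limma adjusted p-values of 0.745 and 0.765.

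Large subunit proteins specific to mitochondria were lower for 13 of 17 measured genes and higher for 4, with a median of -0.17. That median rested largely on H2BK120R replicate 2, at -0.30 against vector replicate 1 and -0.34 against vector replicate 2. For H2BK120R replicate 1 the same medians were 0.01 and -0.04. MRPL37, a protein of this class, was the member with the highest difference. It was at 11.97 and 12.37 in the H2BK120R arrays, against 11.43 and 11.82 in the vector arrays. The 2 groups were separated by a gap smaller than the range within either one. The difference was 0.55 ± 0.18, with a 95% interval from 0.15 to 0.94 and a limma adjusted p of 0.693. MRPL42, also specific to mitochondria, was at 13.50 and 13.63 with H2BK120R and at 13.23 and 13.41 with the vector, a difference of 0.25 ± 0.13. MRPL51 was at 11.49 and 11.28 with H2BK120R and at 11.73 and 11.62 with the vector, a difference of -0.29 ± 0.15. MRPL43 differed by -0.25 ± 0.15. MRPL54, whose arrays overlapped, differed by -0.17 ± 0.35. MRPL58, which frees stalled chains from ribosomes, differed by -0.31 ± 0.31.

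**Figure D3:**
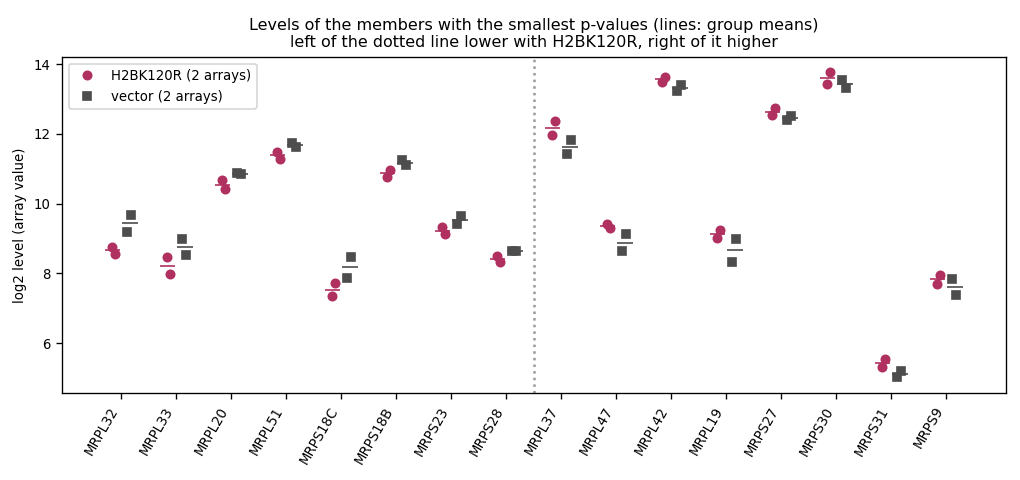
Log2 level in each array for the 4 members of each subunit with the smallest p-values in each direction, with H2BK120R arrays as circles, vector arrays as squares and lines at the group means. MRPL32 and MRPS18C have the largest mean differences of these genes on the lower side and MRPL37 on the higher side, and the groups overlap for MRPS30 and MRPS9.

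Known parts of the large subunit were also read part by part, from lists of their proteins. In the stalk that recruits translation factors, MRPL11 (-0.33 ± 0.20) and MRPL10 (-0.28 ± 0.18) were separated between the groups. MRPL12, which also sits in the stalk and binds the mitochondrial RNA polymerase, was at 11.90 and 11.69 with H2BK120R and at 11.82 and 11.80 with the vector, a difference of -0.02 ± 0.14. In the central protuberance, 4 of 5 genes were lower, beside 49.4% of all probe sets. MRPL48 differed by -0.36 ± 0.22 and MRPL38 by -0.26 ± 0.20, while MRPL18 differed by 0.26 ± 0.17. Around the polypeptide exit, 4 of 5 measured genes were higher, beside 49.9% of all probe sets, with a median difference of 0.14. The 4 were MRPL47, MRPL44 (0.33 ± 0.21), MRPL23 (0.14 ± 0.27) and MRPL22 (0.03 ± 0.28), and MRPL24 differed by -0.05 ± 0.19. The differences of MRPL23, MRPL22 and MRPL24 were smaller than their errors. The lists of parts are short, so such counts depend on which genes they hold. In limma 0 genes of these 3 groups passed an adjusted p of 0.05, and 0 of them had an unadjusted p under 0.05.

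In the small subunit, 11 of 15 measured genes with bacterial counterparts were lower and 4 higher, with a median of -0.07, and 5 of 10 genes specific to mitochondria were lower and 4 higher, with a median of -0.01. The 3 relatives of bacterial protein S18 were all lower. MRPS18C was at 7.34 and 7.72 in the H2BK120R arrays, against 7.88 and 8.47 in the vector arrays. The groups did not overlap, although both spread widely. Its difference was -0.65 ± 0.27, with a 95% interval from -1.24 to -0.05 and a limma adjusted p of 0.745. MRPS18B was at 10.77 and 10.97, against 11.25 and 11.11, a difference of -0.31 ± 0.16. MRPS18A, in the large subunit by structure, had overlapping groups and a difference of -0.19 ± 0.20.

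The other small subunit genes had differences smaller than that of MRPS18C. MRPS23, specific to mitochondria, was at 9.32 and 9.13 in the H2BK120R arrays, against 9.43 and 9.65 in the vector arrays, and MRPS28 at 8.49 and 8.33, against 8.64 and 8.65. Both were separated between the groups, with differences of -0.32 ± 0.19 and -0.24 ± 0.21 (limma adjusted p = 0.777 and 0.846). MRPS27, an RNA-binding protein of this subunit, was at 12.54 and 12.74 with H2BK120R and at 12.41 and 12.51 with the vector, a difference of 0.18 ± 0.13. MRPS31 differed by 0.32 ± 0.30, MRPS9 by 0.23 ± 0.25 and MRPS26 by -0.25 ± 0.26. MRPS30 differed by 0.16 ± 0.14 and turned to -0.02 without H2BK120R replicate 2. The probe sets with the highest values, MRPS2 and MRPS16, also had the smallest errors here. MRPS2 was at 14.23 and 14.36 with H2BK120R and at 14.23 and 14.26 with the vector, a difference of 0.05 ± 0.11 that turned to -0.0013 after quantile normalization. MRPS16 differed by 0.09 ± 0.12, with a 95% interval from -0.19 to 0.36. MRPS12, the counterpart of a bacterial protein at the decoding site, differed by -0.05 ± 0.22.

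The promoters of the 2 members with the smallest p-values in each subunit are printed to show where the searched letters lie, from RefSeq's table for GRCh38.p14, 5′ to 3′ on the gene's strand. Each window holds 250 bases before and 50 from the start of the gene. Capitals mark matches, on either strand, to GCGCATGCG (a core of the NRF1 motif), CCGGAAG (an ETS motif core, as bound by GABPA) or AAGATGGC (the YY1 motif core). NRF1, GABPA and YY1 are factors known to act on nuclear genes for mitochondria. A match is a description of the letters and not a binding site.
MRPL32 (chr7:42932126-42932425, plus strand): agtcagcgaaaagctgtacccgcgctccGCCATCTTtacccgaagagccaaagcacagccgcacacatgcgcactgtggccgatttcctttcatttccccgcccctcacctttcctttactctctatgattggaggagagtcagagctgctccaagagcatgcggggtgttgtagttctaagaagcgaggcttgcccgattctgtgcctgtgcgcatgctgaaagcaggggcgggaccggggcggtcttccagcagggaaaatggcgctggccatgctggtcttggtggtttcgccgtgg
MRPL37 (chr1:54199917-54200216, plus strand): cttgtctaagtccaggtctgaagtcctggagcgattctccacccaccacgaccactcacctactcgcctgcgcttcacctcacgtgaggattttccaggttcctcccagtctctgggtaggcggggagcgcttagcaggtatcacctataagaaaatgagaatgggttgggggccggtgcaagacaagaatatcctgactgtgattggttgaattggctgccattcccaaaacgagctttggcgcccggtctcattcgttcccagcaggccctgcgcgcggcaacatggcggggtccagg
MRPS18C (chr4:83455808-83456107, plus strand): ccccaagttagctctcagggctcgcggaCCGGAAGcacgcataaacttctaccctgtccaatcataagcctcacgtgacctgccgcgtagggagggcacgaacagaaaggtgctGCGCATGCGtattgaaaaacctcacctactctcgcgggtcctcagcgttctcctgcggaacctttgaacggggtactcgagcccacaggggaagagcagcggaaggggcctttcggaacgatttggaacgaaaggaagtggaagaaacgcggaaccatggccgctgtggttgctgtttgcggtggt
MRPS18B (chr6:30617590-30617889, plus strand): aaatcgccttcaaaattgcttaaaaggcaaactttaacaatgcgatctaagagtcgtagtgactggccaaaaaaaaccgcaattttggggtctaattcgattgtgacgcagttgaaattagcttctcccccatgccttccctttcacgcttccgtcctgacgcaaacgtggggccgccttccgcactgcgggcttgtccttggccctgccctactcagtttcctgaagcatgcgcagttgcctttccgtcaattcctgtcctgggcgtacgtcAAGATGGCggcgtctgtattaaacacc

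MRPL32 holds AAGATGGC on the opposite strand, with its first base 222 bases before the start. MRPS18C holds CCGGAAG at the same distance and GCGCATGCG 136 bases before the start. In MRPS18B, AAGATGGC begins 23 bases after the start, and MRPL37 has no match in this window. Over the 66 members with an entry in the table, 28 (42.4%) held the ETS letters, beside 10.7% of all 27305 promoters of this length. The YY1 letters were in 19 (28.8%), beside 3.03%, and the NRF1 letters in 3 (4.55%), beside 2.10%. Among the 14250 promoters of genes on the array, the shares were higher, at 14.3% for ETS, 3.96% for YY1 and 2.82% for NRF1. At least 1 of the 3 motifs was present in 40 members (60.6%), beside 14.6% of all 27305 promoters. An ETS and a YY1 match shared bases in 0 members, beside 0.022% of all promoters. The YY1 letters lay at or after the start in 14 of 20 matches (70.0%), beside 51.3% of matches in all promoters. The ETS letters did so in 5 of 37 (13.5%), close to the 16.7% of all promoters.

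The array values of members with and without the letters were then set side by side. The 28 members with the ETS letters had a median difference of -0.17, with 21 lower, and the 38 without had -0.06, with 23 lower. This gap lay in the large subunit, at -0.23 in 16 genes with the letters and -0.07 in 24 without. In the small subunit it had the opposite sign, at -0.04 in 12 genes with them and -0.06 in 14 without. Among all genes on the array, those with and without these letters had the same median, 0.005. For the YY1 letters the medians were -0.14 in 19 members with them, 12 of them lower, and -0.095 in 47 without, 32 of them lower. Of 7 measured regulators of nuclear genes for mitochondria, 4 were higher and 3 lower, and the median was 0.17. GABPA itself differed by 0.39 ± 0.21, the gene NRF1 by 0.22 ± 0.18, the coactivator PPARGC1A by 0.41 ± 0.31 and its relative PPRC1 by -0.27 ± 0.21. The values of PPARGC1A, from 4.63 to 5.27, lay below the median of all probe sets, 6.41. GABPB1 and YY1 were also listed but had no probe set named for them. In limma 0 of the 7 passed an adjusted p of 0.05, and 0 had an unadjusted p under 0.05.

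The members were also read by the length of their genes. They were divided at the members' median length, 8605 bases in RefSeq. Of the 37 at or under it, 30 were lower with H2BK120R and 5 higher, with a median difference of -0.14. Of the 37 above it, 19 were lower and 18 higher, with a median of -0.02. The same division over all genes gave 56.6% of 4097 short genes lower, with a median of -0.05, and 46.9% of 13586 long genes lower, with a median of 0.02. The medians lay further apart in the large subunit, where 23 of 26 short genes were lower (median -0.15) and 9 of 21 long genes (median 0.10). In the small subunit 7 of 11 short genes and 10 of 16 long genes were lower, with medians of -0.07 and -0.04. The 3 shortest were MRPL41 (-0.31), MRPS34 (0.00) and MRPL51 (-0.29), and the 3 longest were MRPS28 (-0.24), MRPS27 (0.18) and MRPL1 (0.31).

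For the short large subunit genes the median difference was -0.10 and -0.11 between H2BK120R replicate 1 and the vector arrays, and -0.31 against each of them for H2BK120R replicate 2. The sign was thus the same in all 4 pairings, which reuse the same 4 arrays, and the size was larger with H2BK120R replicate 2. Between the H2BK120R arrays, replicate 1 minus 2, the median difference for the short large subunit genes was 0.20. Over all short genes, the pairings gave -0.04 and 0.00 for H2BK120R replicate 1. They gave -0.10 and -0.04 for H2BK120R replicate 2. Across the 74 members, gene length (log2) and difference had a Pearson r of 0.31 and a Spearman rho of 0.27, beside 0.10 and 0.12 across 17683 genes. These points share the same 4 arrays, and genes are not independent replicates. The mean level moved with the difference as well, with a rho of 0.15 across members and 0.14 across all genes. The part of length or level in the differences was not tested.

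**Figure D4:**
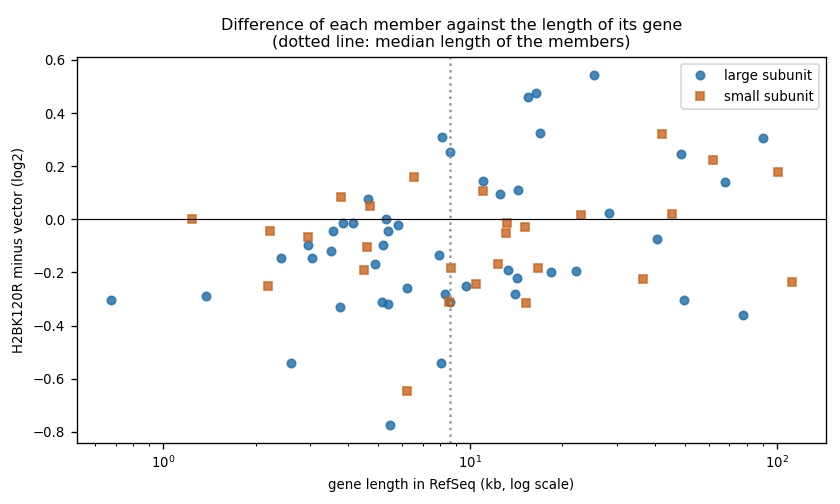
Log2 difference of each member, H2BK120R minus vector, against the length of its gene in RefSeq (log axis), with large subunit genes as circles and small subunit genes as squares. Left of the dotted line, at 8605 bases, 30 of 37 members lie below 0, and right of it 19 of 37.

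Many members start head to head with another gene, so the neighbours were read as well. Of the 66 members in the promoter table, 15 (22.7%) had a gene on the opposite strand starting within 1000 bases upstream, beside 10.1% of all genes on the array. They formed 14 pairs, since MRPL46 and MRPS11 are neighbours of each other. In 11 of 13 pairs with both differences other than 0, the partners had the same sign (84.6%), beside 51.8% of 710 such pairs over the array. Most differences of the neighbours were smaller than their standard errors, so many of these signs are uncertain. The smallest limma adjusted p of a neighbour was 0.762. Why partners had the same sign was not tested. The proteasome subunit gene PSMA2, next to MRPL32, differed by -0.33 ± 0.17, and the helicase gene HELQ, next to MRPS18C, by 0.16 ± 0.20. CYB5RL, next to MRPL37, differed by -0.27 ± 0.28. The 3 members with an unadjusted p under 0.05 thus had 1 partner with the same sign and 2 with the opposite sign. MRPS12 and SARS2, the mitochondrial seryl-tRNA synthetase, both differed by -0.05.

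**Figure D5:**
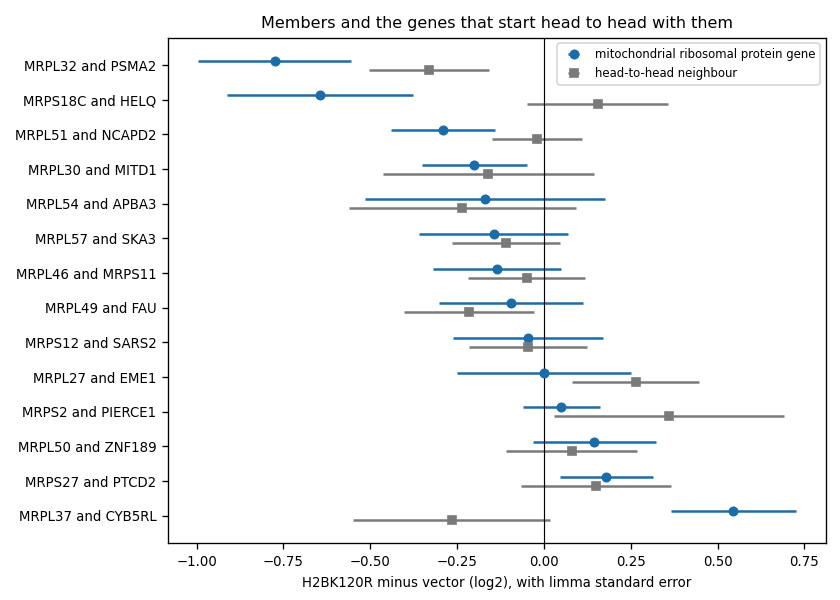
Log2 difference, H2BK120R minus vector, for 14 members (circles) and the genes that start head to head with them (squares), with limma standard errors. MRPL32 and its neighbour lie on the same side of 0, while MRPS18C and MRPL37 lie opposite to theirs.

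Members often have processed copies elsewhere in the genome. By symbol, 38 of the 74 had at least 1 pseudogene in the RefSeq table, 94 in all, including 6 for MRPS18C, 2 for MRPL32 and 1 for MRPL37. The 38 had a median difference of -0.11 and the other 36 of -0.05. A probe set may also read such copies, and their part in the values was not tested.

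Genes that work with the mitochondrial ribosome lay on both sides of 0. Among mitochondrial translation factors, 10 of 12 measured genes were higher with H2BK120R and 2 lower, with a median of 0.07. Of all probe sets, 49.9% were higher. Among the 10 were TSFM (0.015 ± 0.17), MTIF2 (0.01 ± 0.14) and GFM1 (0.01 ± 0.18), which barely differed. The initiation factor gene MTIF3 was at 6.99 and 7.13 with H2BK120R and at 5.99 and 6.90 with the vector, where vector replicate 1 was the low array, and MTRFR, a rescue factor, differed by 0.24 ± 0.14. Of 22 measured genes for ribosome assembly and rRNA modification, 12 lay above 0 and 10 below it, with a median of 0.04. The rRNA methyltransferase gene METTL15 was at 10.90 and 11.08 with H2BK120R and at 10.70 and 10.49 with the vector, a difference of 0.40 ± 0.16 (limma adjusted p = 0.745), and MRM3, another, differed by 0.47 ± 0.21. METTL15 was the 1 gene of these lists with an unadjusted limma p under 0.05. Of all probe sets, 3.62% were higher and 3.08% lower at that threshold, so 1 such gene is not beyond that background.

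For transcription and replication of mitochondrial DNA, 8 of 13 genes were lower and 5 higher, with a median of -0.03. The mitochondrial RNA polymerase gene POLRMT was at 7.14 and 7.16 with H2BK120R and at 7.55 and 7.79 with the vector, a difference of -0.52 ± 0.24 (limma adjusted p = 0.745), and SLIRP, which stabilises mitochondrial messenger RNA, differed by -0.20 ± 0.15. Protein import genes were lower for 16 of 22 and higher for 6, with a median of -0.05. The carrier chaperone TIMM9 differed by -0.46 ± 0.22 and the receptor TOMM20 by 0.22 ± 0.14. Of the mitochondrial ribosomal proteins under other names, 4 of 5 were measured, and GADD45GIP1 differed by -0.31 ± 0.27, PTCD3 by 0.20 ± 0.19, CHCHD1 by -0.10 ± 0.26 and DAP3 by 0.06 ± 0.17. In limma 0 genes of these lists passed an adjusted p of 0.05.

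Set beside the mitochondrial list, 48 of 55 genes for cytosolic ribosomal proteins were lower, with a median of -0.25, and 26 of 32 genes for complex I subunits, with a median of -0.23. The cytosolic genes were picked by a symbol pattern that also admits paralogues with names ending in L, and mean levels in that list reached down to 4.0. The H2BK120R arrays were both below the vector arrays for 63.6% of the cytosolic and 59.4% of the complex I genes. The share was 27.0% for the mitochondrial ones and 17.9% for all probe sets. By pair of arrays, the median difference ran from -0.30 to -0.17 for the cytosolic genes and from -0.12 to -0.09 for the mitochondrial ones. The 3 lists share the same arrays, and the differences between them were not tested.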

How the data were processed

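Total RNA of 4 samples was measured on an Affymetrix whole-transcript array, 2 with H2BK120R and 2 with the vector, grouped and numbered by their titles. The deposited values are log2 levels per probe set, with near-equal medians over the arrays. Base 2 is an inference from the values, which ran from 1.56 to 19.15. The submitters' processing notes name MAS5, with no version. The sources used here do not state the normalization, background correction, probe summary or detection calls. Symbols came from GEO's annotation of the platform, and all 74 member gene IDs matched the RefSeq table for GRCh38.p14, where 0 symbols needed an update. No member gene had a further probe set.

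H2BK120R was compared with vector over all 21448 probe sets in limma 3.58.1 (R 4.3.3, eBayes with trend, two-sided, Benjamini-Hochberg adjustment, 2 residual and 8.95 prior degrees of freedom). The fit was tested on simulated data. Named genes were, in each subunit, the 4 with the smallest p in each direction and the 2 probe sets with the highest and the 2 with the lowest values, and 2 genes from each related list. Members of the structural groups and other genes were named beyond that rule, after their values were seen. The members and lists were chosen with earlier results of these data known. Gene length and start sites come from RefSeq. Figures used Python 3.11.15 and matplotlib 3.10.9. For arrays, their number limits the precision. The alternatives were other normalizations, filters on dim probe sets, variance settings, a replicate block, subunit assignment and leaving out each array.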

Additional observations from a re-analysis of the deposited data

How the results depend on the processing

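In limma, 0 probe sets and 0 members passed an adjusted p of 0.05 under all settings run, arrays left out included. At an unadjusted p under 0.05, the 2 lower and 1 higher members became 1 and 0 without the variance trend, beside 3.18% and 2.75% of all probe sets, and 3 and 3 with the replicate number as a block, beside 3.78% and 4.83%. With 1 array left out, which assumes that a lone array varies as much as the other pair, the counts ran from 0 to 6 lower and from 0 to 4 higher, while the shares of all probe sets ran from 1.14% to 5.34% and from 1.17% to 5.98%. The median over the members was -0.118 after quantile normalization and between -0.1275 and -0.0625 with 1 array left out. In those fits the large subunit median ran from -0.195 to -0.075, the small subunit median from -0.15 to 0.005, and the gap between them from -0.17 to 0.075. Of 22 named members, 18 kept their sign in the settings run. With 1 array left out, MRPL54 ran from -0.55 to 0.21, MRPS30 from -0.015 to 0.335, MRPS2 from -0.015 to 0.115 and MRPS16 from -0.035 to 0.205, and MRPS2 was -0.0013 after quantile normalization. Fewer arrays entered the fits without 1 of them. For the other settings the cause was not tested. The replicate numbers pair no samples by the labels, and the correlation of deviations of same-numbered arrays was 0.14. The block left each difference as it was.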
